A study of Mus musculus with 6 samples.

Results

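The replication-dependent histone genes encode the H1, H2A, H2B, H3 and H4 proteins that package newly made DNA. They were chosen by gene symbol, as every gene whose symbol begins with Hist1h, Hist2h, Hist3h or Hist4h in GENCODE mouse release 21, which gave 70 of the 55385 genes in the files. The family was put forward with the comparison of Activated with Control libraries already known, so its values in that comparison are only a description. No p-value is printed for a member. Counts of members called at an adjusted p threshold, also under other settings, describe the values and add no support. The 70 genes were 6 of H1, 20 of H2A, 19 of H2B, 12 of H3 and 13 of H4. Of these, 67 were annotated as protein coding and 3 as pseudogenes, and 56 lay on chromosome 13, 10 on chromosome 3, 3 on chromosome 11 and 1 on chromosome 6.

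The samples were primary neurons from the cortices of mouse embryos at embryonic day 18, kept 16 days in vitro. Every culture, Activated and Control alike, had been exposed to AraC (2.5 uM), a nucleoside analogue that blocks DNA replication and so holds back dividing cells, for 24 hours starting on day 2. The 3 Activated samples were then depolarised with KCl for 5 minutes and allowed to recover for 30 minutes before harvest, and the 3 Control samples were untreated. The KCl concentration is 50 mM in one label and 50 uM in another, and the files do not settle which is right. No genotype or strain is given in the sources used here, and the labels do not say whether the replicates were separate cultures, so the spread between replicates may be technical.

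In most cell types these genes are transcribed during S phase under the coactivator NPAT. Their transcripts are not polyadenylated but end just after a conserved stem-loop, which is bound by the stem-loop binding protein SLBP and cut with the help of the U7 small nuclear ribonucleoprotein. When DNA synthesis stops, the transcripts are normally destroyed. Neurons have left the cell cycle and take much of their new histone from replication-independent variant genes, whose transcripts carry a poly(A) tail. RNA depleted of ribosomal RNA, as sequenced here, keeps transcripts with and without such a tail.

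Reads assigned to genes numbered 17752711 to 32740171 in the Activated libraries and 22994946 to 32919975 in the Control libraries. Several features of the libraries differed between the groups. Arc, an immediate-early gene of neuronal activity, had 46.3, 48.4 and 52.1 CPM (counts scaled to library size) in Activated libraries, against 180, 186 and 163 CPM in Control libraries, and Npas4, Fosb and Egr2 of the same class were also lower in all 3 Activated libraries. This goes against the labels, so the groups are called below by their labels and a direction holds for the libraries so labelled. Mitochondrial transcripts took 21.3% to 25% of gene reads in Activated and 14.7% to 17.1% in Control libraries.

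Markers of other cell types moved with the labels as well. All 9 of 9 astrocyte markers were higher in Activated libraries, with summed levels of 1468 to 1811 CPM, against 1092 to 1123 CPM in Control libraries. Of the tested markers, 4 of 6 of the oligodendrocyte lineage were higher (67.8 to 79.3 against 51.0 to 54.3 CPM). So were 4 of 7 of endothelial, mural and fibroblast cells (122 to 148 against 87.3 to 95.8 CPM). For microglia 3 of 6 were higher (23.2 to 48.9 against 19.4 to 27.7 CPM), but the groups overlapped for all 6 and for the summed level. Of 8 inhibitory neuron markers 6 were lower, at 893 to 1027 CPM summed in Activated and 1414 to 1453 CPM in Control libraries. Of 9 excitatory neuron markers 6 were lower and 1 was higher, at 2163 to 2330 CPM summed in Activated and 2006 to 2104 CPM in Control libraries. These counts used the adjusted p of edgeR over all genes, of which 16.2% were called higher and 20.6% lower. No marker was at 0 in all 6 libraries. The part of these differences in the histone values was not tested, and in bulk RNA fewer cells of a type and less RNA per cell cannot be told apart.

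The stem-loop was searched in the GENCODE transcripts as the feature that defines this family and that the choice by symbol did not use. The pattern was a stem of 6 bases opening with GG, a loop of 4 bases opening with TT, and the reverse complement of the stem, within 100 bases after the stop codon. It was found in 44 of the 52 members whose annotated end runs at least 30 bases past the stop codon, and in 8 of 20943 other coding genes with such an end. The match began 21 to 58 bases after the stop codon, with a median of 31 bases. The 44 members shared 6 distinct sequences, and 1 example of each is shown because these sequences divide the family by class. For the commonest sequence 1 more member, of another class, is added. Capitals mark the stem and loop, and letters are those of the annotated transcript on its own strand, with T for U.
Hist1h1c (H1): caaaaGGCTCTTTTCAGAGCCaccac
Hist3h2ba (H2B): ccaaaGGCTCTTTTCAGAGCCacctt
Hist1h3e (H3): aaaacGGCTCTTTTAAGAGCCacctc
Hist2h2ac (H2A): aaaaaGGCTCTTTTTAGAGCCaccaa
Hist1h4d (H4): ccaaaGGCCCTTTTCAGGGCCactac
Hist2h4 (H4): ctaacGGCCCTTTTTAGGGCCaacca
Hist1h4j (H4): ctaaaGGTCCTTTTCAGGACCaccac

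The sequence of Hist1h1c and Hist3h2ba was the commonest, with 26 members of the H1, H2A, H2B and H3 classes. That of Hist1h3e, with another base in the loop, was found in 6 members of H1, H2B and H3, and that of Hist2h2ac in 1 member. The H4 genes had stems of their own. The sequence of Hist1h4d was found in 7 H4 genes, that of Hist2h4 in 2 and that of Hist1h4j in 2, and in no other class. Hist1h2bc and Hist2h2be had no match in the searched window. Members without a match are not shown to lack a stem-loop, since the search took exact pairing and this one pattern. Among the 8 other genes with a match was H2afx, the gene of the DNA damage variant H2A.X.

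Upstream regions also divided the family by class. RefSeq promoters on GRCm38.p6, each from 250 bases before to 50 bases after the gene's start, were matched for 60 members by symbol or synonym. The octamer ATTTGCAT, known in vertebrates as a binding site of POU domain factors, was searched on both strands and occurred in 41.2% of 17 H2A and 37.5% of 16 H2B promoters, in none of the H1, H3 and H4 promoters, and in 1.75% of all 27025 promoters. CCAAT, on either strand, occurred in every matched H1, H2A, H2B and H3 promoter but in 25% of 12 H4 promoters, against 37.9% of all promoters. TATAAA, on either strand, occurred in 56.7% of the 60 member promoters and in 14.2% of all promoters. Windows of H2A and H2B genes that lie head to head overlap each other and were counted once for each gene.

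Head-to-head pairs of an H2A and an H2B gene numbered 14, with 172 to 305 bases between the starts of the genes. The region between Hist2h2ac and Hist2h2be is shown because the 2 genes of this pair had log2 fold changes of opposite sign. It is the 300-base window of Hist2h2ac on the minus strand (chr3:96220831-96221130), which covers the 238 bases between both genes. Capitals mark 1 match of the octamer, 3 of CCAAT and 1 of TATAAA, on either strand.
Hist2h2ac promoter: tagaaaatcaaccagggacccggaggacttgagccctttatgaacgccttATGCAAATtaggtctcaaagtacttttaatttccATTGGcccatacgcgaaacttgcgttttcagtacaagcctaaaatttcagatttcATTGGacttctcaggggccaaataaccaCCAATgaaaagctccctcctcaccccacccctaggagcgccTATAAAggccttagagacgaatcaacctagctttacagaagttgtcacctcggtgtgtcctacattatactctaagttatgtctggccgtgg

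The promoters of Hist1h3e and Hist1h4d are shown as those of the H3 and the H4 gene with the most reads. The first (chr13:23562336-23562635, minus strand) held 4 matches of CCAAT, while the second (chr13:23581318-23581617, plus strand) held 1 of CCAAT next to 1 of TATAAA.
Hist1h3e promoter: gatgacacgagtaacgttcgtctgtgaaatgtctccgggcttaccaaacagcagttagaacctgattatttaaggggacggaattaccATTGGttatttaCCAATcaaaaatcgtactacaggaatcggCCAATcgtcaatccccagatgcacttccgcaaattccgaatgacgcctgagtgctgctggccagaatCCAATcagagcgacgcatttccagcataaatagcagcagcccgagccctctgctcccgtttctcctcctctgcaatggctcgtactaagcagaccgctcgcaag
Hist1h4d promoter: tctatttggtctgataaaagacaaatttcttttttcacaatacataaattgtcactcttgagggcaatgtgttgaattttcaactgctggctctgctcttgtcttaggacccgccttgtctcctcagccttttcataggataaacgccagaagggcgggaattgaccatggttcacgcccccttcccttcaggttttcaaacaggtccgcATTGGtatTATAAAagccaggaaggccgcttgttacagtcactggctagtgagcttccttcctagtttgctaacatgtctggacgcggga

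Replication-dependent histone transcripts made up a small and uneven share of the RNA. Over all 70 members, summed levels were 271, 255 and 278 CPM in Activated libraries, against 362, 405 and 388 CPM in Control libraries, so the groups did not overlap. The means were 268 ± 11.7 CPM in Activated and 385 ± 21.9 CPM in Control libraries (SD, n = 3 each), a ratio of 0.695. As a share of reads outside the mitochondrial genome, members took 0.0342%, 0.0333% and 0.0344% in Activated and 0.0443%, 0.0488% and 0.0478% in Control libraries. The lower share in Activated libraries was thus also seen with mitochondrial reads set aside.

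Of the 70 members, 49 passed the filter on low counts and were tested together with all other genes, 18132 in all. Among them 23 were called lower and 1 was called higher in Activated libraries at an adjusted p below 0.05 in the edgeR quasi-likelihood test, and 25 were not called. Over all tested genes 20.6% were called lower and 16.2% higher. Members whose libraries did not overlap numbered 28 with Activated lower and 1 with Activated higher, beside 26.4% and 22.6% of all tested genes. The median log2 fold change, Activated over Control, was -0.48 over the members, with a range of -1.26 to 0.78, and 0.04 over all genes. It was below 0 for 45 members and above 0 for 4. Nothing is read from these counts, since this comparison was known when the family was put forward.

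The scaling of the libraries moved all genes together. Scaling to the neuron marker counts moved the median of all genes to 0.17 and that of the members to -0.35. With it 4993 genes were called higher and 2034 lower, in place of 2945 higher and 3733 lower. With total counts only, 2089 were called higher and 4576 lower. Relative to all genes, the members' median differed by -0.52 under TMM, total counts and the neuron markers. This follows by construction, since a change of scaling shifts every gene alike, so it is no separate test. Each class median also stayed below 0 under these scalings. The neuron scaling used summed marker counts. Excitatory markers summed to 2232 CPM in Activated and 2052 CPM in Control libraries, although 6 of 9 were called lower and 1 higher. Their median log2 fold change was -0.33, and that of the 8 inhibitory markers was -0.69. The members' median of -0.48 under TMM lay between these 2 values. How far neuron content enters the members' values was not tested.

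**Figure D1:**
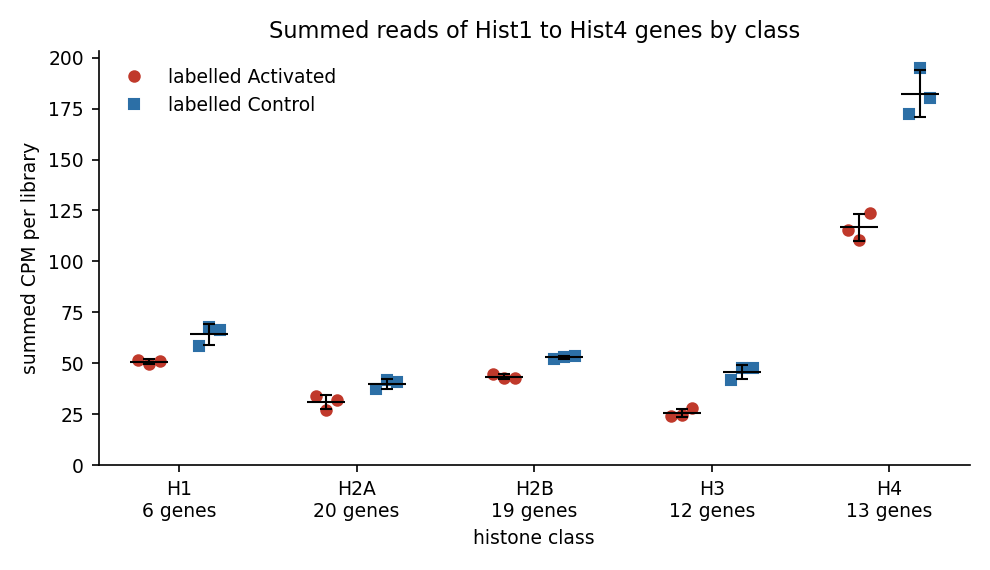
Summed CPM of the genes of each histone class (horizontal axis) in each library, with Activated libraries as circles on the left and Control libraries as squares on the right of each class; bars give the mean and SD of 3 libraries. In every class the 3 Activated sums lie below the 3 Control sums, and H4 holds the highest sums, at 111 to 124 CPM in Activated and 172 to 195 CPM in Control libraries.

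By class, H4 genes held the most assigned reads, and their part of the family total differed between the labels. Reads that map to more than 1 place were left out, which limits the classes unequally, as given below. The levels and shares of the classes are those of reads that could be assigned. H4 took 43.6 ± 0.95% of member CPM in Activated and 47.3 ± 0.87% in Control libraries, and H3 took 9.61 ± 0.56% and 11.9 ± 0.36% (SD, n = 3 each). The shares of the H1, H2A and H2B classes were higher in Activated libraries, at 19 ± 0.5%, 11.6 ± 0.93% and 16.2 ± 0.74%, against 16.7 ± 0.48%, 10.4 ± 0.14% and 13.8 ± 0.67% in Control libraries. For each of the 5 classes the Activated and Control shares did not overlap. The shares are parts of the same total, so these separations are not independent. Summed CPM was lower in Activated libraries for all 5 classes. The ratio of Activated to Control was 0.79 for H1, 0.78 for H2A and 0.82 for H2B, against 0.56 for H3 and 0.64 for H4. Higher shares of the first 3 classes follow from these ratios. Counts of called genes are given below for each class, beside 20.6% of all tested genes called lower and 16.2% called higher.

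The linker histone H1, which binds DNA where it enters and leaves the nucleosome, had summed levels of 51.8, 49.5 and 51.3 CPM in Activated libraries, against 58.4, 68.0 and 66.3 CPM in Control libraries. Of 5 tested H1 genes, 3 were called lower and none higher, with a median log2 fold change of -0.41. Hist1h1c, on chromosome 13 from 23738808 to 23740367, had the highest mean CPM of the family over all 6 libraries, though Hist1h4d was above it in each Control library. Hist1h1c was at 28.6, 28.9 and 27.9 CPM in Activated libraries and 28.1, 36.3 and 33.1 CPM in Control libraries. Its groups overlapped, and its log2 fold change was -0.19 ± 0.09 (SE). Hist1h1e had 16.3, 13.5 and 15.6 CPM in Activated libraries, against 21.7, 21.3 and 22.2 CPM in Control libraries. Here the groups were apart, with a log2 fold change of -0.53 ± 0.09. Hist1h1d (3.75, 3.95 and 3.92 CPM in Activated, 4.31, 5.17 and 6 CPM in Control libraries) and Hist1h1a (1.85, 2.41 and 3.29 CPM in Activated, 3.32, 4.36 and 3.75 CPM in Control libraries) were called lower too, with log2 fold changes of -0.41 ± 0.15 and -0.55 ± 0.20, but the nearest Activated and Control libraries of Hist1h1a differed by little. Hist1h1t, the testis variant, had 1 to 4 reads in each library and was not tested.

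H2A, which pairs with H2B in the nucleosome, had summed levels of 34.0, 27.3 and 32.0 CPM in Activated libraries, against 37.2, 41.7 and 40.9 CPM in Control libraries. Its 10 tested genes had a median log2 fold change of -0.33, all 10 were below 0, and 1 was called lower. That gene was Hist1h2al, annotated as a processed pseudogene on chromosome 13 from 51202727 to 51203065 on the minus strand, away from the other histone genes. It had 17.5, 12.5 and 17.2 CPM in Activated libraries, against 19.7, 22.9 and 20.5 CPM in Control libraries, with a log2 fold change of -0.42 ± 0.12. Hist1h2al gave about as many reads as all the other H2A genes together. Without it the H2A sum was 15.4 ± 0.98 CPM in Activated and 18.9 ± 1.46 CPM in Control libraries (SD, n = 3 each). An antisense gene overlaps 109 of its bases, and its call was lost with unstranded counts and without Control replicate 2.

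The other H2A genes were at low levels by assigned reads, and none of them was called. Hist3h2a had 4.29, 4.49 and 2.63 CPM in Activated libraries and 5.02, 4.19 and 5.00 CPM in Control libraries. Hist1h2ak had 2.50, 2.41 and 3.04 CPM in Activated libraries and 2.90, 3.64 and 3.43 CPM in Control libraries. In both genes the groups overlapped, with log2 fold changes of -0.34 ± 0.19 and -0.31 ± 0.18. Hist1h2ai (0.298, 0.359 and 0.627 CPM in Activated, 0.600, 0.508 and 0.798 CPM in Control libraries) and Hist1h2ab (0.952, 0.718 and 1.16 CPM in Activated, 0.742, 1.61 and 1.63 CPM in Control libraries) had log2 fold changes of -0.52 ± 0.36 and -0.48 ± 0.32, also with overlapping groups. Another 10 H2A genes did not pass the filter.

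The H2B genes, whose proteins pair with H2A, went both ways. Their summed levels were 45.0, 42.6 and 42.8 CPM in Activated libraries, against 52.3, 53.2 and 53.4 CPM in Control libraries. Of 14 tested genes 3 were called lower and 1 higher, and the median log2 fold change was -0.39, with a range of -0.76 to 0.78. Hist3h2ba, on chromosome 11 from 58948920 to 58949533, had the most reads of the class, at 17.4, 15.1 and 15.7 CPM in Activated libraries, against 21.7, 22.8 and 22.1 CPM in Control libraries. Its groups were well apart, with a log2 fold change of -0.47 ± 0.08. Hist1h2bc, whose model has 2 exons, had 13.03, 11.8 and 12.3 CPM in Activated libraries, against 14.2, 13.8 and 15.4 CPM in Control libraries. Its groups did not overlap, but it was not called, with a log2 fold change of -0.23 ± 0.09. Hist1h2bg had 2.32, 3.09 and 2.60 CPM in Activated libraries, against 3.46, 4.28 and 3.87 CPM in Control libraries, and was called lower with a log2 fold change of -0.52 ± 0.17.

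Hist2h2be encodes a variant H2B that in mouse is known from olfactory sensory neurons, where its level depends on activity. It lies on chromosome 3 from 96221119 to 96223738 on the plus strand and had 1.79, 2.01 and 2.85 CPM in Activated libraries, against 1.27, 1.14 and 1.51 CPM in Control libraries. It was the 1 member called higher, with 30, 56 and 91 reads in Activated and 36, 27 and 51 reads in Control libraries, and a log2 fold change of 0.78 ± 0.23. The call was lost without Activated replicate 3, where the log2 fold change was 0.53, and without Control replicate 1 or 2. All windows of 150 bases in its model occur in no other annotated transcript, and the model runs 2192 bases past the stop codon. Its neighbour Hist2h2ac, from the shared region printed above, had a log2 fold change of -0.37 ± 0.19 and was not called. The difference between these neighbours was not tested.

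Hist1h2bj and Hist1h2bm had the next largest log2 fold changes of the H2B class and few reads. Hist1h2bj had 3, 5 and 11 reads in Activated libraries and 13, 10 and 13 in Control libraries, with a log2 fold change of -0.76 ± 0.40. Hist1h2bm had 9, 15 and 9 reads in Activated libraries and 8, 9 and 5 in Control libraries, with a log2 fold change of 0.74 ± 0.45. Neither was called.

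H3, the core histone that carries many of the best known tail modifications, had the lowest median log2 fold change of the classes, -0.82. Summed levels were 24.3, 24.9 and 28.0 CPM in Activated libraries, against 42.0, 47.7 and 47.7 CPM in Control libraries, and 6 of 8 tested genes were called lower. Hist1h3e, on chromosome 13 from 23561534 to 23562369, held much of this sum, at 12.9, 12.2 and 13.7 CPM in Activated libraries, against 21.8, 26.2 and 25.3 CPM in Control libraries. No library of one label came near those of the other, and the log2 fold change was -0.91 ± 0.09. Hist1h3i had 2.56, 2.77 and 2.82 CPM in Activated libraries, against 5.86, 6.27 and 6.15 CPM in Control libraries. Its replicates were close to one another, with a log2 fold change of -1.16 ± 0.14. Hist1h3a had the lowest log2 fold change of the family, -1.26 ± 0.24, at 1.01, 0.862 and 1.22 CPM in Activated libraries, against 1.84, 2.71 and 2.93 CPM in Control libraries. Hist2h3b had 2.38, 2.23 and 2.79 CPM in Activated libraries, against 3.32, 3.90 and 3.75 CPM in Control libraries, with a log2 fold change of -0.56 ± 0.17. Of the 8 tested H3 genes, Hist2h3c2 alone lay above 0, at 0.48 ± 0.28, and it was not called.

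H4, the partner of H3 and the least variable of the core histones in sequence, was the class in which the most genes were called. Its summed levels were 116, 111 and 124 CPM in Activated libraries, against 172, 195 and 180 CPM in Control libraries. Of 12 tested genes 10 were called lower, none was called higher, and all 12 had a log2 fold change below 0, with a median of -0.62 and a range of -0.83 to -0.28. Hist1h4d, on chromosome 13 from 23581598 to 23582735, had 24.5, 21.9 and 25 CPM in Activated libraries, against 33.9, 40.3 and 35 CPM in Control libraries. It had the most reads of the class, and its log2 fold change was -0.61 ± 0.08. Hist1h4c had 17.3, 15.6 and 18.2 CPM in Activated libraries, against 26.5, 29.9 and 26.3 CPM in Control libraries. Hist1h4h had 15.1, 14.98 and 15.4 CPM in Activated libraries, against 23.8, 29.6 and 25.5 CPM in Control libraries. Groups of both genes were far apart, with log2 fold changes of -0.69 ± 0.09 and -0.79 ± 0.09. Hist1h4a (8.87, 7.76 and 10.98 CPM in Activated, 16.5, 18.3 and 14.9 CPM in Control libraries) had the lowest log2 fold change of the class, -0.83 ± 0.13. Hist2h4, on chromosome 3, had 8.51, 9.55 and 10.9 CPM in Activated libraries, against 13.3, 19.2 and 15.6 CPM in Control libraries, with a log2 fold change of -0.71 ± 0.13.

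**Figure D2:**
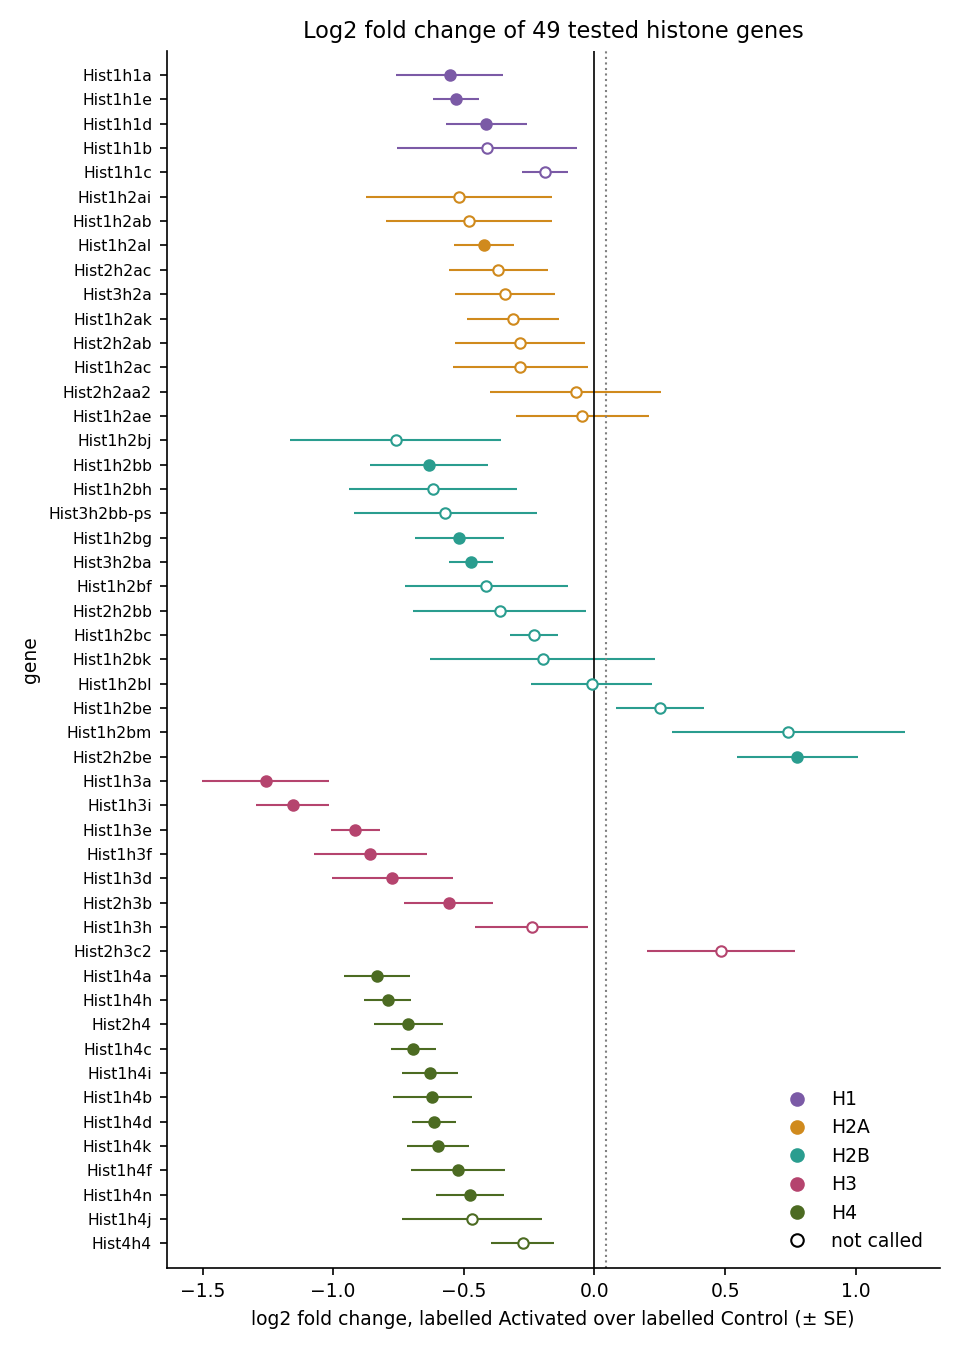
Log2 fold change, Activated over Control libraries, with its standard error for the 49 tested genes, grouped by class from H1 at the top to H4 at the bottom; filled points were called at an adjusted p below 0.05, open points were not, and the dotted line is the median of all genes, 0.04. The 12 H4 genes all lie below 0, while the H2B genes spread between -0.76 for Hist1h2bj and 0.78 for Hist2h2be.

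Some calls were lost under other settings or with 1 library left out. Of the 24 members called, 14 were called under every alternative that gave a value, all of them lower. These included Hist1h1e, Hist3h2ba, Hist1h3a, Hist1h3e, Hist1h3i, Hist1h4a, Hist1h4c, Hist1h4d, Hist1h4h and Hist2h4. The calls of Hist1h1d, Hist1h4f, Hist1h2bb, Hist1h1a, Hist2h3b and Hist1h2bg were lost in 9, 8, 8, 7, 5 and 5 alternatives. Without Control replicate 2, members called lower numbered 15 in place of 23.

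The 21 members under the filter were 1 of H1, 10 of H2A, 5 of H2B, 4 of H3 and 1 of H4. Of these, 17 had reads, never more than 14 in a library, and 4 were at 0 in all 6 libraries. A count of 0 allows a level of up to 3 reads, or 0.0887 to 0.179 CPM depending on the library, for counting error only. Hist1h2aj is a pseudogene, Hist1h2aa is a testis variant, and Hist2h2aa1 and Hist2h3c1 share exons on the same strand with Gm20634, where reads of more than 1 gene are not assigned. A level of 0 for the last 2 is therefore no measure of those genes. In Hist1h2aj 10.3% of windows are found in no other gene, so reads from most of its length may not have been assigned to it. Such windows do not settle this, since a member with 0% unique windows still had 12 to 39 reads in each library.

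Near-identical copies limited what could be counted. In each member's model, windows of 150 bases, the read length, were compared with all other annotated transcripts, and a median of 76.1% of windows were found in no other gene. All windows were unique in 16 members, while under 50% were unique in 22, and the class medians were 100% for H1, 41.2% for H2A, 77.7% for H2B, 61.9% for H3 and 87.5% for H4. Reads that map to more than 1 place were not assigned to a gene, and they made up 5.17% to 5.25% of reads in Activated and 5.44% to 6.34% in Control libraries. Members with at least 90% unique windows summed to 151 ± 7.43 CPM in Activated and 207 ± 15.6 CPM in Control libraries, and those under 90% summed to 117 ± 4.68 and 179 ± 6.68 CPM (SD, n = 3 each). Of the first set, 21 were tested, with 9 called lower, 1 called higher and a median log2 fold change of -0.41. Of the second, 28 were tested, with 14 called lower, none called higher and a median of -0.52. Both counts stand beside 20.6% of all tested genes called lower and 16.2% called higher.

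Exons of 7 members overlapped another gene on the same strand, among them those of Hist1h2be and Hist1h1e, which share 496 bases. Without these 7 the members summed to 243 ± 11.9 CPM in Activated and 353 ± 22.4 CPM in Control libraries. Reads on the opposite strand were few, at 1.01% to 1.07% of member reads on both strands in Activated and 0.573% to 0.823% in Control libraries. They amounted to 2.77 to 2.82 CPM in Activated and 2.08 to 3.22 CPM in Control libraries, so these groups overlapped.

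Levels per length give another order of the genes than CPM, because annotated models ranged widely in length. RPKM, the CPM per kilobase of exon, placed Hist1h2al first, at 46.4 ± 8.18 in Activated and 62.0 ± 4.86 in Control libraries, followed by Hist1h4h at 32.2 ± 0.48 and 55.9 ± 6.30 (SD, n = 3 each). Hist3h2ba came next, at 26.2 ± 2.01 RPKM in Activated and 36.2 ± 0.94 RPKM in Control libraries. The genes after it were close together over all 6 libraries, with mean levels of 27.9 RPKM for Hist1h4k, 27.7 for Hist1h4n, 27.2 for Hist1h4c and 26.4 for Hist1h4d, differing by less than the SD between Control replicates of Hist1h4n (6.09 RPKM). Hist1h4a (23.9 RPKM), Hist1h3e (22.4 RPKM) and Hist1h1c (19.6 RPKM) followed. Thus 6 of the 10 highest levels per length were H4 genes, beside 12 H4 genes among the 49 tested members. This order depends on annotated length, such as 312 bases for Hist1h4k and 7425 for Hist1h1d. It also depends on the reads that could be assigned, which the unique windows limit unequally between classes.

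**Figure D3:**
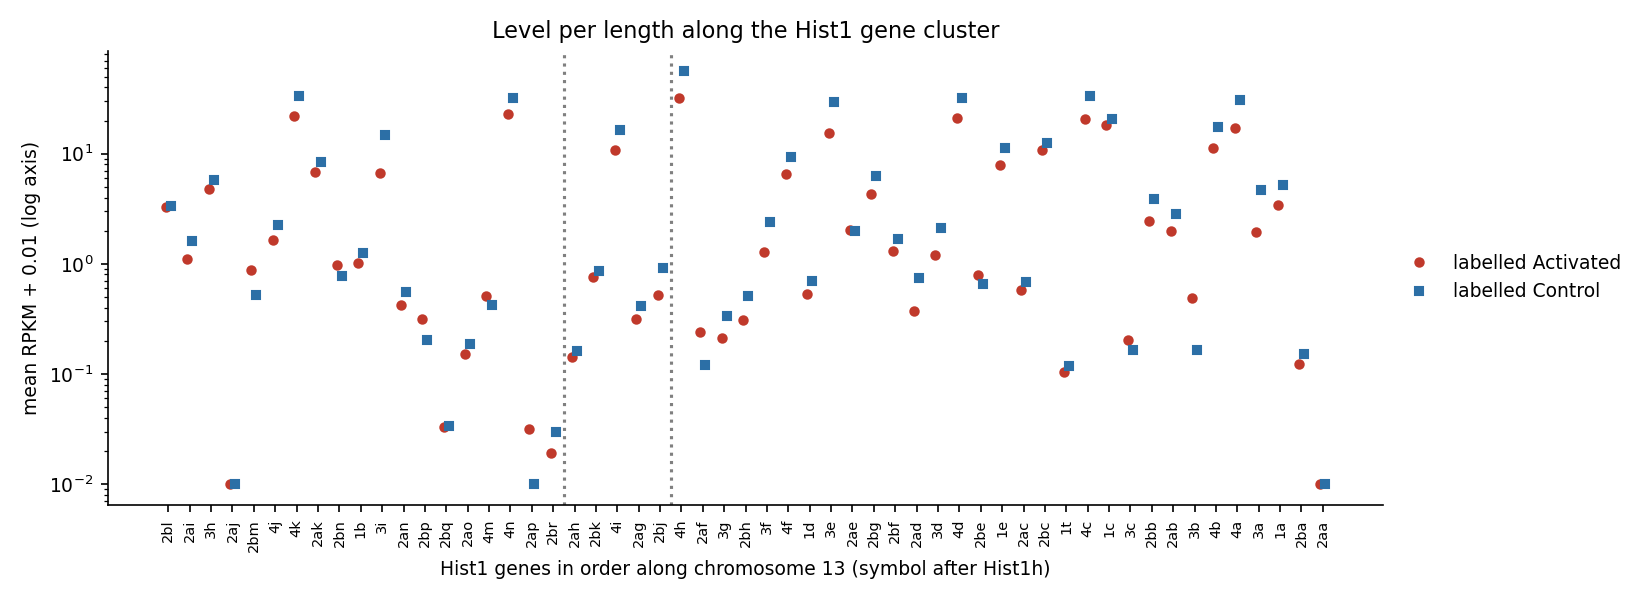
Mean level per length (RPKM plus 0.01, on a log axis) of the Hist1 genes in their order along chromosome 13, with Activated libraries as circles and Control libraries as squares; dotted lines part the proximal, middle and distal groups of genes. High genes lie among low genes and runs of low genes along the chromosome. Low values may be understated where few windows are unique to a gene. Activated lies below Control at most genes of high level, such as Hist1h4h at 32.2 RPKM in Activated and 55.9 RPKM in Control libraries.

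Neighbouring genes did not share 1 level. Within head-to-head pairs, Hist1h2bc averaged 11.6 RPKM and its partner Hist1h2ac 0.621 RPKM over all 6 libraries. Hist2h2ac averaged 4.35 RPKM and Hist2h2be 0.673 RPKM. Their models are 520 and 2620 bases long, so this gap depends on the annotated length. By mean CPM Hist2h2ac and Hist2h2be were at 1.965 and 2.217 in Activated and at 2.555 and 1.307 in Control libraries. Hist1h2ak averaged 7.60 RPKM and its partner Hist1h2bn 0.867 RPKM. In their models 100% and 65.1% of windows were unique, so the level of Hist1h2bn may be understated. Both genes were tested in 5 of the 14 pairs. The high gene of a pair was thus the H2A gene in some pairs and the H2B gene in others. For the pairs of Hist1h2bc and of Hist1h2ak the order was the same by CPM.

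By position, the distal group on chromosome 13 held 31 genes and summed to 165 ± 7.16 CPM in Activated and 243 ± 17.6 CPM in Control libraries, with 15 of 23 tested genes called lower. The proximal group of 19 genes summed to 29.4 ± 2.07 CPM in Activated and 42.0 ± 1.74 CPM in Control libraries, with 3 of 10 called lower. The 14 members off chromosome 13 summed to 49.4 ± 1.58 CPM in Activated and 65.8 ± 2.89 CPM in Control libraries, with 3 of 12 called lower and 1 called higher. In each of these places the Activated sums lay below the Control sums. The counts of called genes stand beside 20.6% of all tested genes called lower and 16.2% called higher.

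Gene models were also compared by how far they run past the stop codon. Models that end within 200 bases of it numbered 29, of which 18 were tested, with 10 called lower, none called higher and a median log2 fold change of -0.52. Models that run further or are spliced numbered 25, of which 20 were tested, with 10 called lower, 1 called higher and a median of -0.47. The 13 models that stop at the coding sequence had 9 tested genes, 2 called lower, none called higher and a median of -0.36. Members with a stem-loop match had 33 tested genes, 17 called lower, none called higher and a median of -0.48. Among all tested genes, 20.6% were called lower and 16.2% higher. These files count reads per gene, so ends before and after the stem-loop cannot be told apart.

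Genes outside the family that belong to histone biology were taken from lists of known genes. The lists were chosen with earlier results of these data known, and most genes named from them have the smallest p of their list. Their adjusted p values are therefore descriptive. Of the 11 replication-independent variants, which supply histone outside S phase, all 11 were tested, and 7 fell and none rose in Activated libraries at an adjusted p below 0.05 in the edgeR test, beside 20.6% of all genes called lower. The median log2 fold change was -0.40, with 9 genes below 0 and 2 above. The list held H2afx, named here for its stem-loop match, a feature of the replication-dependent genes, and H2afx was among those that fell. H3f3b and H3f3a, the 2 genes of the H3 variant used outside replication, fell. H3f3b had 88.9, 87.8 and 92.1 CPM in Activated libraries, against 134, 149 and 142 CPM in Control libraries (log2 fold change -0.66 ± 0.06, adjusted p = 1.4e-05, edgeR). H3f3a had 60.5, 53.3 and 63.6 CPM in Activated libraries, against 75.2, 80.3 and 78.4 CPM in Control libraries (-0.40 ± 0.07, adjusted p = 0.000746, edgeR). H2afz, the gene of the promoter-associated variant H2A.Z, had 25.7, 26.0 and 31.2 CPM in Activated libraries, against 37.6, 44.4 and 38.5 CPM in Control libraries (-0.53 ± 0.09, adjusted p = 0.00051, edgeR). Whether the variants and the replication-dependent genes differ was not tested.

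The next list held the machinery that makes and cuts histone transcripts. Of 18 genes tested, 5 fell and none rose, beside 20.6% of all tested genes called lower and 16.2% called higher. The median log2 fold change of -0.09 turned to 0.03 when libraries were scaled to neuron markers. Slbp, whose protein binds the stem-loop, had 7.86, 7.40 and 9.35 CPM in Activated libraries, against 11.8, 11.4 and 12.95 CPM in Control libraries (log2 fold change -0.55 ± 0.11, adjusted p = 0.00206, edgeR). Snrpd3, a Sm protein of small nuclear ribonucleoproteins including U7, fell by 0.60 ± 0.09 on the log2 scale (adjusted p = 0.000304, edgeR), and Cpsf2, a subunit of the cleavage complex, fell by 0.33 ± 0.06 (adjusted p = 0.00119, edgeR). Npat, the coactivator, had 26.3, 29.7 and 27.1 CPM in Activated libraries, against 26.1, 24.8 and 25.9 CPM in Control libraries (0.12 ± 0.07, adjusted p = 0.231, edgeR). Npat was not called, although its 3 Activated libraries lay just above its 3 Control libraries.

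Of the genes of histone transcript decay, 6 of the 8 listed were matched by symbol. Of these 1 fell and none rose, beside 20.6% of all tested genes called lower and 16.2% called higher, and the median log2 fold change was -0.15. Upf1, an RNA helicase of decay, fell by 0.28 ± 0.06 on the log2 scale (adjusted p = 0.00398, edgeR). Lsm1, a subunit of the ring that binds the transcript's end, was at -0.25 ± 0.11 (adjusted p = 0.0846, edgeR), and Mif4gd, a partner of SLBP, at 0.46 ± 0.20 (adjusted p = 0.0866, edgeR). Neither was called. Histone chaperones, which carry histones to and from DNA, had 7 of 14 genes that fell and none that rose, beside the same shares. Their median was -0.23. Among them Set fell by 0.54 ± 0.06 (adjusted p = 4.06e-05, edgeR), Anp32e by 0.48 ± 0.07 (adjusted p = 0.000151, edgeR) and Nap1l4 by 0.44 ± 0.06 (adjusted p = 0.000158, edgeR).

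Genes of S phase and proliferation, to which replication-dependent histones are normally tied, went both ways. Of 29 tested, 3 rose and 3 fell, beside 16.2% of all tested genes called higher and 20.6% called lower. The median log2 fold change was 0.08. Pcna, the sliding clamp of DNA polymerase, had 11.4, 10.3 and 13.9 CPM in Activated libraries, against 17.4, 16.7 and 14.8 CPM in Control libraries (-0.45 ± 0.12, adjusted p = 0.00749, edgeR). Cdt1, a licensing factor, fell by 0.81 ± 0.24 (adjusted p = 0.0183, edgeR) and Fen1, a flap nuclease, by 0.45 ± 0.14 (adjusted p = 0.0185, edgeR). Those that rose were Rrm2, Cdk2 and Mki67, named here after their values were seen. Mki67, a marker of cycling cells, had 4.76, 3.30 and 3.42 CPM in Activated libraries, against 3.22, 1.69 and 2.39 CPM in Control libraries (0.61 ± 0.22, adjusted p = 0.0449, edgeR). None of the 3 that rose stayed called without Activated replicate 1 or without Control replicate 2. The summed level of the list was 118 ± 7.35 CPM in Activated and 125 ± 2.69 CPM in Control libraries (SD, n = 3 each).

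**Figure D4:**
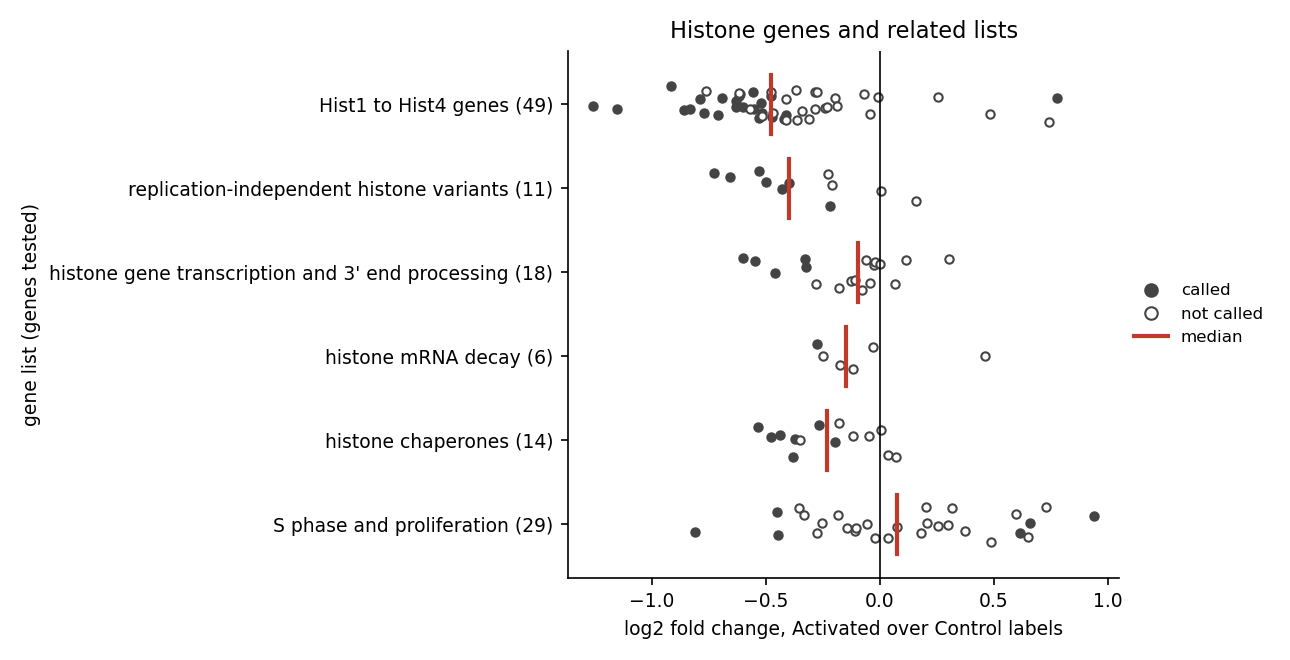
Log2 fold change, Activated over Control libraries, of each tested gene in the family (top row) and in the 5 related lists, with the number of genes tested after each name; filled points were called, open points were not, and the vertical bar is the median. The medians run from -0.48 for the family and -0.40 for the replication-independent variants to 0.08 for genes of S phase and proliferation.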

How the data were processed

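The authors deposited 1 table of read counts per gene for each of the 6 libraries, with an unstranded column and 1 column for each strand. Per the submitters' processing notes, the aligner was STAR 2.5.2b, the genome build mm10 and the tool for differential expression edgeR, on reads of 150 bp; the annotation release is not given in the sources used here. The counts of the reverse strand were used. The lines that name no gene entered neither library sizes nor tests: unmapped reads made up 7.49% to 9.88% of reads, multimapping 5.17% to 6.34%, no feature 25.1% to 37.3% and ambiguous 0.736% to 0.977%. Names and models came from GENCODE mouse release 21 (55144 of 55385 identifiers matched).

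Genes passing filterByExpr (minimum count 10, total 15) were scaled by TMM and fitted in edgeR 4.0.16 (R 4.3.3; quasi-likelihood F test), with Benjamini-Hochberg adjustment over 18132 genes and a threshold of 0.05. Log2 fold changes are Activated over Control, and each standard error is the size of the log2 fold change divided by the root of its F value. CPM uses TMM library sizes, and RPKM is CPM per kilobase of exon. The fit was tested on simulated counts. Intervals and limits from counts of 0 cover counting error only.

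Members, lists and rules were chosen with earlier results of these data known. Named members are the 3 with the highest mean CPM and the 3 with the largest absolute log2 fold change of each class, and named list genes the 3 with the smallest p, with Slbp and Npat; Hist2h2ac, Hist1h2ac, Hist1h2bn, Hist1h2be, Hist1h4j, Hist1h4k, Hist1h4n, Hist2h3c2, the label check genes and those at 0 or with lost calls were named after their values were seen. Alternatives were other scalings, DESeq2 1.42.0, other filters, unstranded counts, a replicate block, a length and GC offset, and each library left out in turn.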

Additional observations from a re-analysis of the deposited data

How the results depend on the processing

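The members' median log2 fold change of -0.48 stayed below 0 under every alternative run. It was -0.54 with total counts only, -0.35 scaled to summed neuron marker counts and -0.56 with unstranded counts. With 1 library left out it was -0.49 to -0.38. The neuron marker scaling does not settle how far neuron content enters these values, since most single neuron markers were called lower. Members called lower (23) numbered 17 to 26 under the alternatives that leave out no library and 15 to 21 with 1 left out; members called higher (1) numbered 0 to 1 with 1 left out. Scaled to neuron markers, 4993 genes in all were called higher (2945) and 2034 lower (3733), which by construction shifts every gene. Under that scaling the lists changed as follows: transcription and 3' end processing had 1 higher (0) and 3 lower (5), decay 1 higher (0) and 0 lower (1), chaperones 1 higher (0) and 4 lower (7), and S phase 5 higher (3). With total counts only, decay had 3 lower (1) and S phase 1 higher (3). With 1 library left out, transcription and 3' end processing had 3 to 6 lower, and S phase 0 to 4 higher and 1 to 4 lower. Beyond these shifts the cause was not tested.

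Replicate numbers did not pair the samples: the correlations of same-numbered Activated and Control deviations were -0.014, -0.182 and -0.215. With the replicate block, 20 members were called lower and 1 higher, and the members' median was -0.47. No named member or list gene changed its sign in any alternative. Members with few reads, such as Hist1h2bj and Hist1h2bm, are limited by depth.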
